A study of Mus musculus with 3 samples.

Results

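The 10 receptor chain genes described here of T-helper 1 (Th1) cells were chosen by gene symbol: Il12rb1, Il12rb2, Il23r, Il27ra, Il6st, Il18r1, Il18rap, Ifngr1, Ifngr2 and Il10ra. All 10 were found once each among the 50600 genes of the files, matched by gene identifier to GENCODE mouse names. The samples were 3 RNA libraries from primary Th1 cells of mouse strain C57BL/6NJ, which form 1 group. The labels number them as biological replicates 1, 2 and 3, give the same donor record for each and name no genotype or treatment other than strain and cell fate, with age unknown and sex not collected. Column names in the file headers describe sorted cells taken after 72 hours. The labels call the molecule total RNA, while the library protocol they link to is named for poly(A)+ RNA. The p-values for pairs of chains (limma) measure the spread between these libraries, which may in part be technical. Those for differences between libraries (chi-square) hold counting error only.

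Interferon gamma is the hallmark cytokine of Th1 cells, a fate of CD4 T cells. Interleukin 12 binds a receptor of Il12rb1 and Il12rb2 and signals through JAK2, TYK2 and STAT4, and Il12rb2 is the chain that is classically kept on Th1 and lost from Th2 cells. Il12rb1 also pairs with Il23r to form the receptor for interleukin 23. Il27ra pairs with Il6st, the shared chain gp130, to bind interleukin 27. Interleukin 18 is bound by Il18r1, and Il18rap joins it so that the adaptor MyD88 can be recruited. Ifngr1 binds interferon gamma, Ifngr2 is needed for its signal, and Il10ra binds interleukin 10 together with Il10rb.

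The libraries held 4482916, 266790 and 3733531 counted fragments in replicates 1, 2 and 3, so replicate 2 was 16.8-fold shallower than replicate 1. In replicate 2, Il27ra and Il18rap had 2 fragments each and Ifngr2 had 1, below the floor of 3 fragments used here. Genes of T cells marked the material: 8 of 8 T-cell markers and 5 of 5 Th1 markers, among them Tbx21 and Ifng, reached a mean of 10 TPM. TPM is a length-scaled share of a library. Of 36 markers of other cell types, 28 were below 1 TPM and 18 had no fragment in any library. Their summed level was 172, 155 and 186 TPM in replicates 1, 2 and 3, of which Csf1r, whose exons meet those of a gene on the other strand, held 85.4, 112 and 135 TPM. The other 7 at 1 TPM or more were the B-cell genes Ighm (23.1 TPM) and Cd79a (8.23 TPM), Cd68 of macrophages (12.7 TPM), Eomes of natural killer cells (6.87 TPM), Cd8b1 (2.28 TPM), Il1rl1 (2.15 TPM) and Zbtb46 of dendritic cells (1.04 TPM). Ighm had 193, 1 and 63 fragments, Cd68 29, 3 and 22, and Eomes, which has an exon overlap on the other strand, 86, 2 and 59. Of the 5 listed genes of natural killer cells, which also carry interleukin 12 and 18 receptors, Ncr1, Klrb1c and Klre1 had no fragment and Klrd1 had 1, 0 and 1. The part of other cells in the levels below was not tested.

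Every level below is that of the strand the authors counted. Among 128 noncoding genes lying at least 90% inside exons of a protein-coding gene on the other strand, fragments per base exceeded those of the coding gene by a median of 15.4-fold, 17.7-fold and 34.98-fold in replicates 1, 2 and 3. The noncoding gene held more fragments per base in 105, 114 and 112 of the 128 in these replicates. The row of a receptor gene may thus hold mainly RNA of the strand opposite to its mRNA. Gene counts do not show which strand a row holds, and this was not tested for single genes. Levels given here, also those of markers, ligands and relays, are therefore not shown to be mRNA levels. Of the 10 receptor genes, 8 had no exon base in common with a gene on the other strand. Il27ra shared 2 bases with Palm3. Il12rb2 shared 1519 bases, 40.0% of its exon length, with Serbp1, which encodes an mRNA-binding protein. The identifiers in the files are ENSMUSG00000018341.12 for Il12rb2, ENSMUSG00000026070.15 for Il18r1, ENSMUSG00000000791.9 for Il12rb1, ENSMUSG00000049093.9 for Il23r, ENSMUSG00000032089.16 for Il10ra, ENSMUSG00000020009.12 for Ifngr1, ENSMUSG00000005465.9 for Il27ra, ENSMUSG00000021756.12 for Il6st, ENSMUSG00000026068.11 for Il18rap and ENSMUSG00000022965.7 for Ifngr2.

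Il12rb2 lies on the minus strand at chr6:67291318-67376188 (mm10), and Serbp1 runs towards it on the plus strand. The shared bases fall in the last exon of Il12rb2, at chr6:67291318-67292736, where 531 of 1419 bases are coding for Il12rb2, and in an upstream block of 100 coding bases at chr6:67295212-67295311. All of them are noncoding for Serbp1. The Serbp1 row held 19747, 1249 and 19237 fragments in replicates 1, 2 and 3, or 469, 481 and 470 TPM. Its level was close to equal in the 3 libraries, while that of Il12rb2 was lowest in replicate 3. The shared bases were 7.55% of the exon length of Serbp1.

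**Figure D1:**
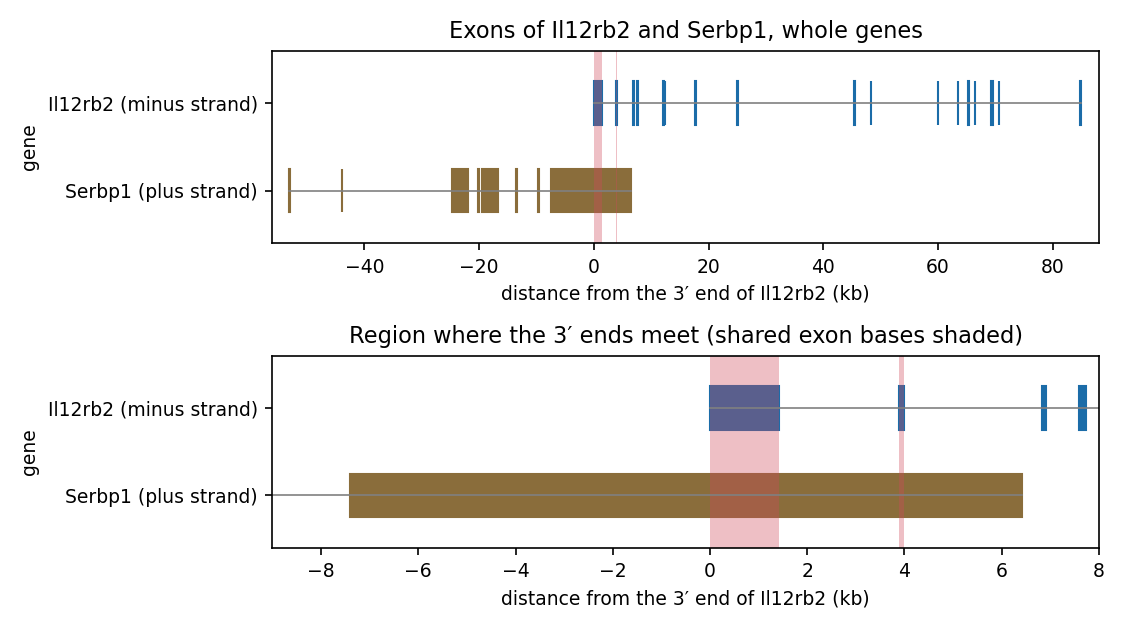
Exons of Il12rb2 (minus strand) and Serbp1 (plus strand) as counted, against distance from the 3′ end of Il12rb2 in kb; the upper panel shows both genes whole and the lower panel the region where they meet. Boxes are exons and the shading marks the 1519 shared exon bases, which lie in 2 exons of Il12rb2 and in the last exon of Serbp1.

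The receptor genes include 2 pairs of neighbours on the same strand, whose levels differ in each library. Il12rb2 and Il23r lie 46743 bases apart on chromosome 6, and Il18r1 and Il18rap 14507 bases apart on chromosome 1. The promoter windows of these 4 genes are shown so that the neighbours can be read against each other, from 250 bases before to 50 after the start site (RefSeq, GRCm38.p6), with capitals marking a match to a searched motif on either strand. The windows are chr6:67376139-67376438 (minus strand) for Il12rb2, chr6:67491806-67492105 (minus strand) for Il23r, chr1:40465302-40465601 (plus strand) for Il18r1 and chr1:40515112-40515411 (plus strand) for Il18rap.
Il12rb2: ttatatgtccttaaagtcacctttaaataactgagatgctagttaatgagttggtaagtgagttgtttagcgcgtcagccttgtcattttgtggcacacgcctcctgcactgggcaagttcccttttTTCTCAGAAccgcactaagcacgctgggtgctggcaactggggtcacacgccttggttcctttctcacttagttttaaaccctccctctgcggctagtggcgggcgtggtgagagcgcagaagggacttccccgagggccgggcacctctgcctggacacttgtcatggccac
Il23r: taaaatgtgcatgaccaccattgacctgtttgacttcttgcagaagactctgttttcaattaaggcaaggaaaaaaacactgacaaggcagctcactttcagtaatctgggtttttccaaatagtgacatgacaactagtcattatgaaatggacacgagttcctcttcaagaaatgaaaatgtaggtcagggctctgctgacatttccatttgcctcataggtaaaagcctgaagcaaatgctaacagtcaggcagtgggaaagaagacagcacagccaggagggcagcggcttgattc
Il18r1: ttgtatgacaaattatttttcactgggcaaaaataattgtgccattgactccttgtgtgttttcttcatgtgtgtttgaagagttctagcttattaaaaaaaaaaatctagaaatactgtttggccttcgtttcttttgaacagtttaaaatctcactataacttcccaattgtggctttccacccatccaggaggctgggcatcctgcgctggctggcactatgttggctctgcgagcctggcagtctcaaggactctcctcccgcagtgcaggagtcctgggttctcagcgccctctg
Il18rap: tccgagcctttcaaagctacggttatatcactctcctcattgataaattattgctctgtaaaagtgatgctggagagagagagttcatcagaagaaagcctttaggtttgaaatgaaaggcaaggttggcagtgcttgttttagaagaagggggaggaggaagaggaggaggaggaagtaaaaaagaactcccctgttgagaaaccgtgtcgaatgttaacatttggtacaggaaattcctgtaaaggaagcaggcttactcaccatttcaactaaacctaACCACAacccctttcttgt

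The motifs searched were the STAT site TTCNNNGAA, the T-box motif GGTGTG, the RUNX site TGTGGT and the TATA box TATAAA. The window of Il12rb2 held 1 STAT match and that of Il18rap 1 RUNX match, while those of Il23r and Il18r1 held no match to any of the 4. For Il18r1, which had 3 windows, only that nearest the gene start is described. Over 32851 RefSeq promoter windows of the same length, 8.30% held the STAT motif, 19.0% the T-box motif, 16.8% the RUNX motif and 13.6% the TATA box. Il12rb2 had 12 CpG dinucleotides in its window, against 2 in Il23r, 5 in Il18r1 and 4 in Il18rap, beside a median of 7 over all windows. Among the other receptor genes in that table, Ifngr1 had 14, Ifngr2 31 and Il6st 33, and the window of Ifngr2 held 1 T-box motif. Il12rb1, Il27ra and Il10ra had no window. Of the 3 genes of lowest level, Il6st and Ifngr2 had the most CpGs among the 7 receptor genes with a window, and Il18rap had 4. A relation of CpG number to level was not tested.

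All 10 receptor genes reached a mean of 1 TPM and 7 reached 10 TPM, where 47.8% and 27.3% of 21764 protein-coding genes did. The median of the 10 means was 20.9 TPM, and that of the 10408 protein-coding genes at 1 TPM or more was 12.8 TPM. Levels spanned from 140.0 TPM for Il12rb2 to 3.16 TPM for Ifngr2. In bulk RNA, fewer cells carrying a transcript and less of it per cell cannot be told apart.

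**Figure D2:**
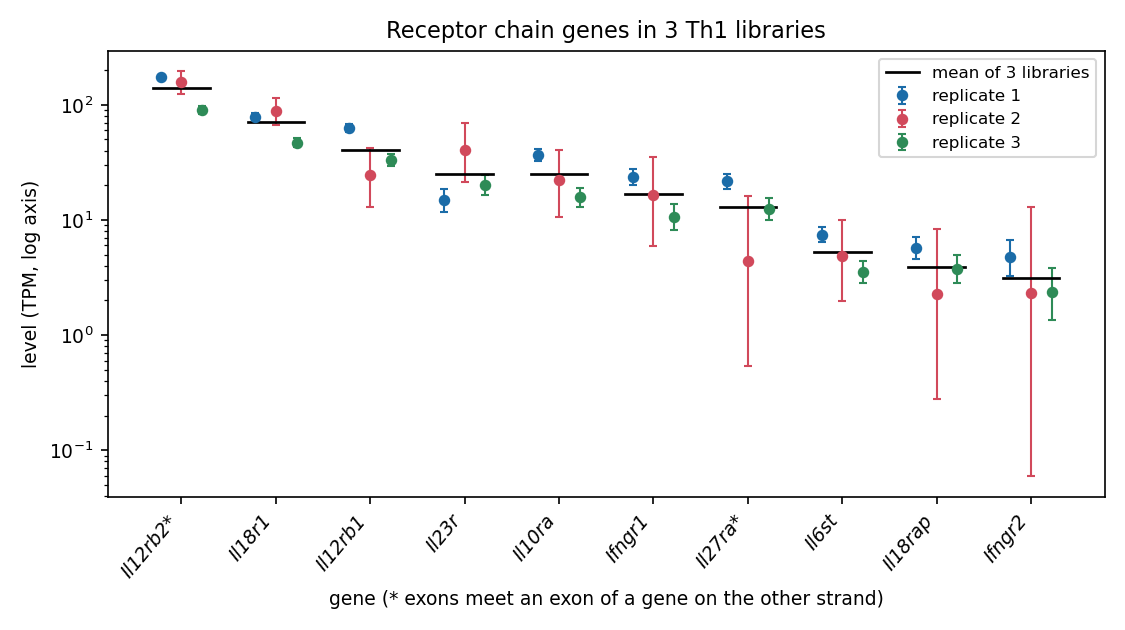
Level of each receptor gene in TPM (log axis) in replicates 1, 2 and 3, with 95% Poisson intervals that cover counting error only a bar at the mean of the 3 libraries and an asterisk for an exon overlap on the other strand. Il12rb2 is highest in each library, and the intervals of replicate 2 are the widest.

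The interleukin 12 receptor chains were the first and the third highest of the 10. Il12rb2 had 173, 157 and 90.3 TPM in replicates 1, 2 and 3 (1369, 77 and 698 fragments), a mean of 140.0 ± 43.7 TPM (SD, n = 3). It was higher than 94.2% of the protein-coding genes at 1 TPM or more. Il12rb1, on chromosome 8 from 70808449 to 70821424, had 62.9, 24.5 and 33.4 TPM (540, 13 and 279 fragments), a mean of 40.3 ± 20.1 TPM. Replicate 1 was high for Il12rb1, and the lowest library of Il12rb2 was above the highest of Il12rb1.

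Set against Il12rb1 within each library, Il12rb2 was higher in 3 of 3. Per base of exon it held 2.74, 6.41 and 2.71 times the fragments of Il12rb1 in replicates 1, 2 and 3. The mean log2 ratio of TPM + 1 was 1.83 (SE 0.49; limma, adjusted p = 0.00525), in a fit where 66.5% of 11594 genes differed from Il12rb1. The adjusted p-value (limma) ran from 0.0026 to 0.0314 over the alternatives. With 40.0% of its exon bases shared with Serbp1, the level of Il12rb2 could not be recomputed on unshared bases from gene counts, and the part of Serbp1 in it was not tested.

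Il23r, the chain that Il12rb1 carries for interleukin 23 and a gene best known from Th17 cells, was the fourth highest. It lies on chromosome 6 from 67422932 to 67491855 and had 14.8, 40.4 and 20.1 TPM (77, 13 and 102 fragments), a mean of 25.1 ± 13.5 TPM. Its mean was 17.5 TPM without replicate 2. Replicate 1 was the lowest library for Il23r and the highest for Il12rb1.

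Il23r held 0.235, 1.65 and 0.603 times the fragments per base of Il12rb1 in replicates 1, 2 and 3. Its counting interval in replicate 2, with 13 fragments of each gene, ran from 0.705 to 3.86 (95%, exact binomial). The mean log2 ratio of -0.67 did not pass (limma, adjusted p = 0.30), and was -1.36 without replicate 2 and 0.00 to 2 decimals without replicate 1, with adjusted p-values from 0.0673 to 0.999 over the alternatives. Il12rb2 shares exon bases with Serbp1 while Il23r has no overlap, and the part of Serbp1 in the next pair was not tested. Between the alternative partners of Il12rb1, Il12rb2 was higher than Il23r in 3 of 3 libraries, by 11.7, 3.88 and 4.49 times per base. The mean log2 ratio was 2.50 (SE 0.77; limma, adjusted p = 0.00474), where 43.7% of 11594 genes differed from Il23r. The call was lost without replicate 1 (log2 ratio 2.02; limma, adjusted p = 0.0786), where 0 of 10803 genes differed from Il23r (4728 at an unadjusted p under 0.05), and without replicate 3 (2.69; limma, adjusted p = 0.11), where 13.5% of 11271 did, and over the alternatives the adjusted p ran from 2.01e-07 to 0.11.

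The interleukin 18 receptor chains stood furthest apart of the pairs tested. Il18r1, the ligand-binding chain, lies on chromosome 1 from 40465552 to 40500854 and had 78.6, 88.4 and 47.0 TPM (792, 55 and 461 fragments), a mean of 71.3 ± 21.6 TPM. Il18rap, on chromosome 1 from 40515362 to 40551705, had 5.74, 2.29 and 3.78 TPM (81, 2 and 52 fragments), a mean of 3.94 ± 1.73 TPM. The ranges did not overlap.

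Il18r1 held 13.7, 38.5 and 12.4 times the fragments per base of Il18rap in replicates 1, 2 and 3. The interval in replicate 2, with 2 fragments of Il18rap, was wide, from 10.2 to 326 (95%, exact binomial). The mean log2 ratio of TPM + 1 was 3.88 (SE 0.46; limma, adjusted p = 1.22e-05), where 63.9% of 11594 genes differed from Il18rap. It was 3.45 without replicate 2, and the adjusted p ran from 1.36e-07 to 0.00245 over the alternatives. Il18r1 was above 87.6% of the protein-coding genes at 1 TPM or more, and Il18rap above 20.3%.

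The interferon gamma receptor chains differed in the same direction in each library. Ifngr1, on chromosome 10 from 19591949 to 19610229, had 23.7, 16.3 and 10.7 TPM (141, 6 and 62 fragments), a mean of 16.9 ± 6.51 TPM. Ifngr2, on chromosome 16 from 91547072 to 91565169, was the lowest of the 10 with 4.76, 2.34 and 2.37 TPM (33, 1 and 16 fragments), a mean of 3.16 ± 1.39 TPM. The ranges of the chains did not overlap, although the single fragment of Ifngr2 in replicate 2 allows up to 13.0 TPM (95% Poisson).

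Per base, Ifngr1 held 4.97, 6.98 and 4.51 times the fragments of Ifngr2. The mean log2 ratio was 2.09 (SE 0.30; limma, adjusted p = 0.00226), where 66.7% of 11594 genes differed from Ifngr2, with adjusted p from 0.00146 to 0.0139 over the alternatives. The ligand gene Ifng had 840.5, 634 and 339 TPM, a mean of 604 ± 252 TPM. Both the ligand and Ifngr1 were highest in replicate 1 and lowest in replicate 3. Such a fall was common: of 6932 genes with no exon overlap, 93.0% were lower in replicate 3 than in replicate 1.

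The interleukin 27 receptor chains did not differ beyond the spread of the 3 libraries. Il27ra, on chromosome 8 from 84030294 to 84042589, had 21.6, 4.43 and 12.5 TPM (158, 2 and 89 fragments), a mean of 12.9 ± 8.60 TPM. Il6st, on chromosome 13 from 112464070 to 112510086, had 7.45, 4.88 and 3.54 TPM (173, 7 and 80 fragments), a mean of 5.29 ± 1.99 TPM. Il27ra was above Il6st in replicates 1 and 3 and level with it in replicate 2, where its 2 fragments allow from 0.536 to 16.0 TPM.

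Il27ra over Il6st had a mean log2 ratio of 0.96 (SE 0.44; limma, adjusted p = 0.126), where 58.7% of 11594 genes differed from Il6st. Without replicate 2 it was 1.496 and passed (limma, adjusted p = 0.0118), where 64.7% of 12256 genes differed from Il6st, and over the alternatives the adjusted p ran from 0.0118 to 0.385. The mean of Il27ra was 8.47 TPM without replicate 1. Over the 3 libraries Il6st held 260 fragments on 11099 exon bases and Il27ra 249 fragments on 3495 exon bases.

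Il10ra, on chromosome 9 from 45253837 to 45269149, had 36.6, 22.1 and 15.9 TPM (268, 10 and 113 fragments), a mean of 24.9 ± 10.7 TPM. Il10rb, the chain it shares its receptor with, had 7.66, 32.5 and 4.51 TPM (61, 16 and 35 fragments), a mean of 14.9 ± 15.3 TPM. Il10rb was highest in replicate 2, where it exceeded Il10ra, and far lower in the other 2 libraries. Il10ra over Il10rb had a mean log2 ratio of 1.07 (SE 1.03; limma, adjusted p = 0.502), where 17.0% of 11594 genes differed from Il10rb. Without replicate 2 it was 1.87 and passed (limma, adjusted p = 0.00772), where 71.6% of 12256 genes differed from Il10rb, and over the alternatives the adjusted p ran from 0.00772 to 0.929.

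**Figure D3:**
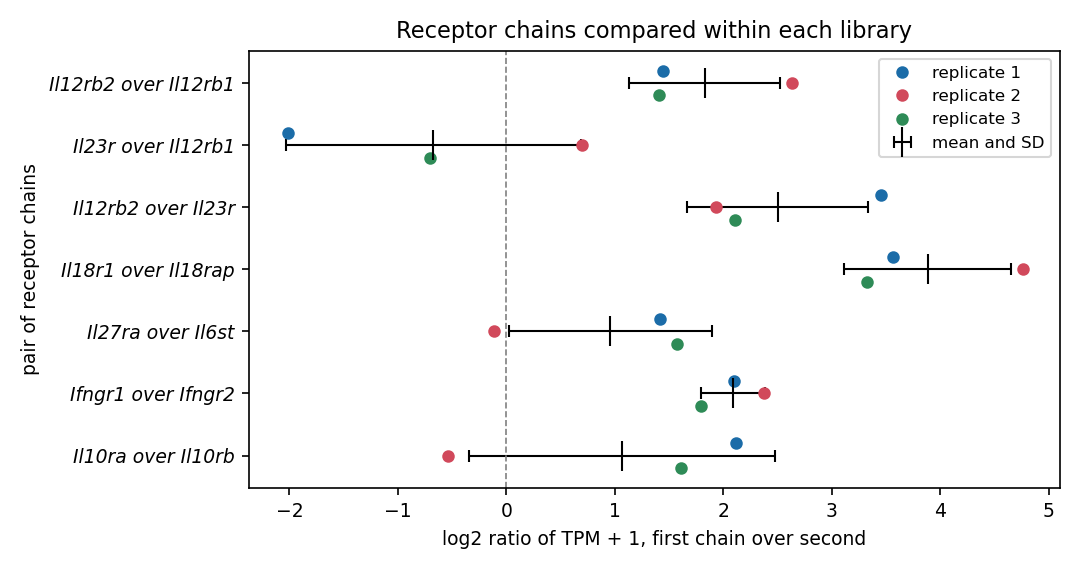
Log2 ratio of TPM + 1 of the first chain over the second in replicates 1, 2 and 3 for the 7 pairs tested, with the mean and SD. Il12rb2 over Il12rb1, Il12rb2 over Il23r, Il18r1 over Il18rap and Ifngr1 over Ifngr2 lie above 0 in each library, and the other 3 pairs have replicate 2 on the opposite side of 0 from replicates 1 and 3.

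In the order of mean levels, Il12rb2 was followed by Il18r1, Il12rb1, Il23r, Il10ra, Ifngr1, Il27ra, Il6st, Il18rap and Ifngr2. Of the 9 steps between neighbours, 3 held in each library: Il12rb2 over Il18r1, Il18r1 over Il12rb1 and Il10ra over Ifngr1. The step from Il12rb2 to Il18r1 was 68.7 TPM, above the larger SD of 43.7, and was the 1 step whose ranges did not overlap. The part of Serbp1 in the level of Il12rb2 was not tested. The step from Il18r1 to Il12rb1 was 31.1 TPM, against an SD of 21.6. The other 7 steps were smaller than the larger SD of the genes compared. Il23r and Il10ra differed by 0.248 TPM, and without replicate 2 Il10ra (26.3 TPM) stood above Il23r (17.5 TPM). Without replicate 1 Il23r (30.3 TPM) stood above Il12rb1 (28.9 TPM).

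Between libraries, 3 of the 10 receptor genes varied by more than counting error and by at least 2-fold, where 32.2% of 11595 genes did (chi-square test on counts, Benjamini-Hochberg adjusted p under 0.05). This test compares the libraries and holds counting error only. Il23r had a ratio of 2.79 between its highest and lowest library (chi-square, adjusted p = 2.43e-05) and was highest in replicate 2. Il12rb1 had a ratio of 2.51 (chi-square, adjusted p = 7.62e-06) and Il27ra of 3.18 (chi-square, adjusted p = 0.0343), both highest in replicate 1 and lowest in replicate 2. Il27ra did not pass with DESeq2 size factors (chi-square, adjusted p = 0.061) or with no filter on low counts.

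Of the other 7, Il12rb2, Il18r1, Il10ra, Ifngr1 and Il6st differed by more than counting error but by less than 2-fold, with ratios from 1.38 to 1.67. At any ratio 8 of the 10 passed, against 3 of 8 when only genes with no overlap were scaled and tested. The share of all genes that passed at any ratio was not computed. Il18rap and Ifngr2 did not pass (chi-square, adjusted p = 0.46 and 0.456). Without replicate 2, Il23r was the 1 of 10 called, where 14.9% of genes were. Without replicate 3, Il23r and Il12rb1 were called, where 11.8% of genes were. Without replicate 1, 0 of 9 were called by the chi-square test, where 18.0% of genes were, and 4 of the 9 had an unadjusted p under 0.05. The share of all genes under that unadjusted threshold was not computed.

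Il23r was the receptor gene that did not fall from replicate 1 to replicate 3. The other 9 were lower in replicate 3, by 1.52-fold for Il18rap to 2.31-fold for Il10ra, while Il23r was 0.735 times as high in replicate 1 as in replicate 3. Over all 11594 genes compared, 76.0% were lower in replicate 3. Among 6932 genes with no exon overlap, 93.0% were lower in replicate 3, with a median log2 difference of -0.77, beside a median of -0.96 over the 8 receptor genes without overlap. Among 4662 genes with an overlap, 50.8% were lower, with a median of -0.03, beside -0.93 for Il12rb2 and -0.79 for Il27ra. Without replicate 2, the chi-square test between replicates 1 and 3 gave Il23r a ratio of 2.04 on TMM-scaled library sizes (chi-square, adjusted p = 7.6e-06).

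The share of fragments in genes with an exon overlap on the other strand was 51.7%, 55.1% and 66.5% in replicates 1, 2 and 3, and what part this had in the lower levels of replicate 3 was not tested. Rescaled over genes with no overlap, the median log2 difference of replicate 3 from replicate 1 was -0.12 over all such genes and -0.31 over the 8 receptor genes. On that scale Il23r was higher in replicate 3 by 1.10 (log2) and Il18rap by 0.05, and the other 6 were lower by 0.09 to 0.56. Among genes with no overlap, 17.3% were called between the 3 libraries, and of the 8 receptor genes Il23r and Il12rb1 were called. GENCODE release 21 places no other gene within Il23r on either strand.

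**Figure D4:**
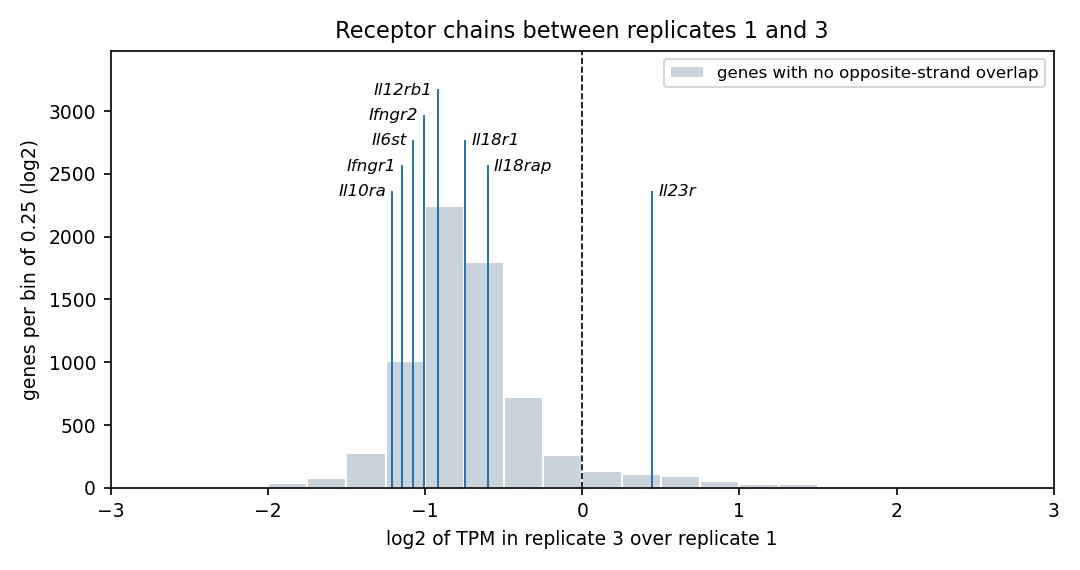
Log2 of the TPM in replicate 3 over that in replicate 1, with bars for the number of genes with no opposite-strand exon overlap in bins of 0.25 and lines for the 8 receptor genes without overlap (the axis ends at -3 and 3). Il23r lies at 0.44, and the other 7 lie between -1.21 and -0.60.

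For the receptor genes with at least 10 fragments in each library and no overlap, the protein-coding gene most alike over the 3 libraries was found by Euclidean distance of centred log2(TPM + 1). The nearest gene was Nrp1, a coreceptor for semaphorins, for Il23r (distance 0.18), Serpinb6b for Il12rb1 (0.017), Mdm4 for Il18r1 (0.0040) and Wbp2 for Il10ra (0.031). Nrp1 had 11.0, 28.5 and 12.5 TPM. Within a distance of 0.5 lay 8 of 2551 genes for Il23r, against 528, 1463 and 1143 of 2550 for Il12rb1, Il18r1 and Il10ra. With 3 libraries this describes shared ups and downs only.

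Ifng was by far the highest of the ligand genes. Of the 9 listed, 5 reached 1 TPM and 2 reached 10 TPM, Ifng and Ebi3. Ebi3, a subunit of interleukin 27 whose exons meet those of Gm16712 on the other strand, had 31.5, 52.9 and 18.5 TPM. Il12a and Il12b, the subunits of interleukin 12, had no fragment, where 3 fragments over the group would be 0.414 and 0.358 TPM. Il18 had 3, 0 and 4 fragments, Il23a 4, 0 and 5, and Il10 3, 0 and 2. Il27, the other subunit of interleukin 27, had 14, 0 and 24 fragments, with exons that meet those of Apobr on the other strand.

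The kinases and STAT factors that relay these receptors all reached 10 TPM, 11 of 11. Jak2, a kinase bound by Il12rb2 and Ifngr2, had 85.0, 103 and 47.2 TPM, a mean of 78.4 ± 28.5. Tyk2, the kinase of Il12rb1, was lowest of the 11 at 10.9 ± 2.93 TPM (overlapped by a gene on the other strand). Stat4, the main relay of interleukin 12, had 24.9, 30.0 and 17.1 TPM, a mean of 24.0 ± 6.48. In TPM both Jak2 and Stat4 were highest in replicate 2 and lowest in replicate 3. For Stat4, with 15 fragments in replicate 2, the libraries did not differ beyond counting error (chi-square, adjusted p = 0.666). Jak2 differed beyond it (chi-square, adjusted p = 4.23e-06), with a ratio of 1.61 between its highest and lowest library.

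All 6 genes of the interleukin 18 relay reached 10 TPM. Myd88, the adaptor, had 44.0, 93.1 and 34.7 TPM, and Irak4, the first kinase bound by it, 42.8, 70.9 and 52.8 TPM. In TPM both were highest in replicate 2, and both have exons that meet a gene on the other strand. On TMM-scaled library sizes Irak4 was highest in replicate 3, with a ratio of 1.71 between its highest and lowest library. By the chi-square test 4 of the 6 varied between libraries, beside 32.2% of all genes tested, with Myd88, Traf6 and Tollip highest in replicate 2 and Irak1 in replicate 1.

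Of 10 genes that damp these receptors, 10 reached 1 TPM and 8 reached 10 TPM, and 1 of 10 varied between libraries (Pias1, highest in replicate 2), beside 32.2% of all genes tested. Socs1, which restrains interferon gamma signalling, had 56.4, 19.0 and 36.6 TPM, and Socs3, which binds gp130, had 79.6, 64.3 and 44.3 TPM. Il18bp, the secreted decoy of interleukin 18, had 38.6, 43.5 and 52.4 TPM, with 80 exon bases in common with Numa1 on the other strand. Its mean of 44.8 ± 7.02 TPM lay between those of Il18r1 and Il18rap.

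The receptor genes were also set within their families. In the interleukin 1 and 18 receptor family 2 of 8 genes reached 10 TPM, Il18r1 and Sigirr, an inhibitory member at 37.7 ± 11.3 TPM. Il1r1 had no fragment, where 3 over the group would be 0.111 TPM. In the family of gp130 and its relatives 4 of 13 did, Il12rb2, Il12rb1, Il23r and Il27ra. Il6st followed at 5.29 TPM and Il6ra at 4.21 ± 1.16 TPM, and the remaining 7 genes were below 1 TPM, with no fragment of Cntfr, Lepr or Il31ra. In the class II family 5 of 12 reached 10 TPM, among them Ifnar1, a chain of the type I interferon receptor, at 15.0 ± 4.14 TPM.

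Among the 9 genes of the common gamma chain family, 7 reached 10 TPM, with a median of 34.9 TPM beside 20.9 TPM over the 10 receptor genes. Il2ra (559 ± 166 TPM) stood above Il12rb2, while Il2rb (114 ± 28.0) and Il21r (111 ± 24.1) stood between Il12rb2 and Il18r1. No test was made of these differences.

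**Figure D5:**
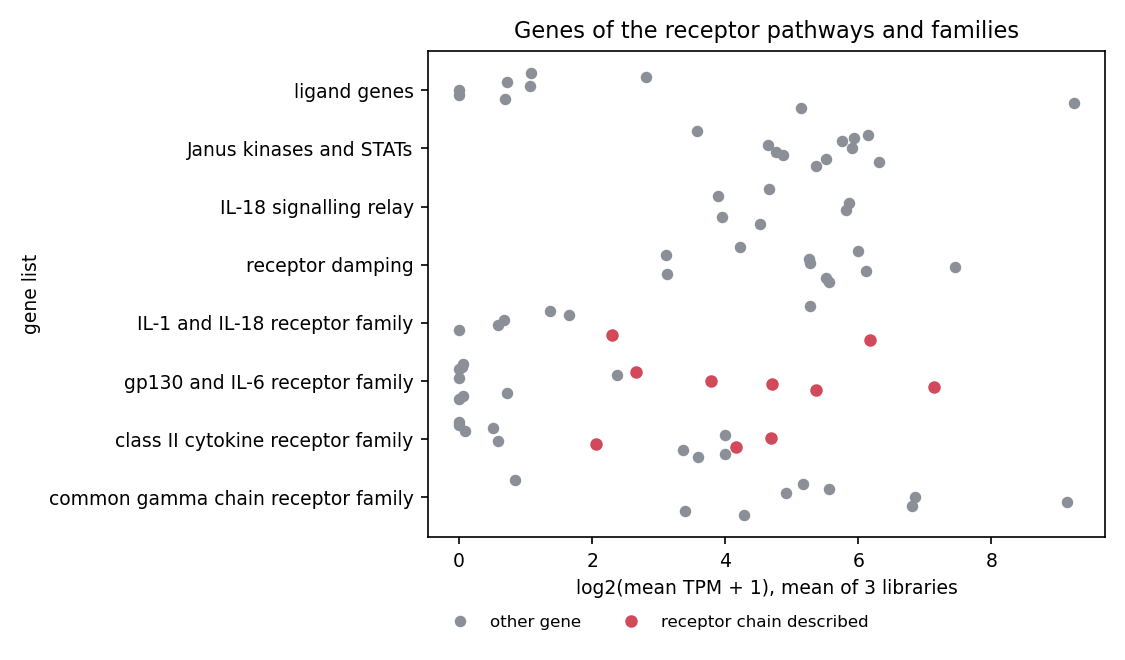
Log2(mean TPM + 1) over the 3 libraries for each gene of 8 lists of ligands, relays and receptor families, 1 point per gene; the vertical offset within a list has no meaning. Red points are the 10 receptor genes described, which with Sigirr are the highest of the interleukin 1 and 18 receptor family, and by themselves the highest of the gp130 family.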

How the data were processed

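Each library came with 1 deposited table of unnormalized fragment counts by gene, which the authors made using featureCounts (1.4.6-p4, per the file headers). Both ends had to map, exons of GENCODE mouse release 13 were summed by gene (assembly mm10, per the labels), and the strand setting was 1, per the file headers, which also call the run paired-end and stranded. For the aligner, no version is given in the sources used here. All value columns were used (0 left aside). Gene symbols came from GENCODE release 21 (50376 of 50600 matched).

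TPM was computed from the deposited counts and exon lengths, and a gene was marked as overlapped when any of its exon bases lay in an exon on the other strand (bedtools 2.31.1). Each of 7 pairs was tested with limma 3.58.1: the log2 ratio of TPM + 1 of every gene with a mean count of at least 10 to the second chain, within each library, was set against 0 (two-sided), and p-values were Benjamini-Hochberg adjusted over all genes of that fit. All genes of a fit share the noise of the second chain. The chi-square test used TMM-scaled library sizes (edgeR 4.0.16), a mean count of at least 10, and set the lowest library to no less than 3 counts for the ratio. DESeq2 1.42.0 gave size factors for an alternative. Both tests were run on simulated data, with equal library depths for the pair fit and counting error only for the chi-square test. Neither setting matches these libraries, so the check does not show how the tests behave on them. Intervals cover counting error only, since PCR copies are not independent molecules.

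Named genes were the 10 members, Il10rb, all members of the lists of ligands, relays, families and cell type markers, genes facing a member, and the gene most alike. Members and lists were chosen with earlier results of these data known. Alternatives changed the pseudocount, filters, scaling, moderation, averaging and the genes scaled over, and left out each replicate. Some list genes are not reported here.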

Additional observations from a re-analysis of the deposited data

How the results depend on the processing

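Leaving out 1 replicate gave log2 ratios from 2.02 to 2.78 for Il12rb2 over Il23r, from 0.65 to 1.496 for Il27ra over Il6st and from 0.54 to 1.87 for Il10ra over Il10rb, and the calls of these 3 pairs changed as given with their results. The other 4 pairs kept their side of the threshold under each alternative that could be fitted. Of 7 pairs 4 passed, with 6 without replicate 2, and on genes with no opposite-strand overlap 2 of the 4 pairs that could be fitted did, since Il12rb2 and Il27ra are left out there. The count of genes called between libraries, 3731, was 1332 to 1941 without 1 replicate, 1750 at a mean count of at least 100 and 1201 on genes with no overlap. The count of receptor genes called, 3, was 0 to 2 without 1 replicate and 1 at a mean count of at least 100, where 4 of the 10 were tested. The cause of these shifts was not tested. Without replicate 2, 12257 genes were tested and 14.9% called, against 11595 and 32.2% with all libraries. Under each alternative 6 or 7 of the receptor genes reached 10 TPM (7 of 8 on genes with no overlap). Levels on genes with no overlap are shares of a smaller total and are higher for that reason. Replicate 2, with 266790 fragments, limits what can be said of Il18rap, Il27ra and Ifngr2. No paired analysis was possible because the labels give 1 group.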
